A study of Drosophila melanogaster with 16 samples.

Results

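The genes described here are 10 Drosophila genes of Wnt signalling, chosen by name: the Ryk-type receptors *drl* (derailed) and *dnt* (doughnut on 2), the ligand *Wnt5*, the receptors *fz*, *fz2* and *arr*, and *arm*, *pan*, *nkd* and *Axn*, which act inside the cell. Members were the probes that carry one of these symbols in the platform annotation. By that rule 4 of the 10 genes, *drl*, *dnt*, *nkd* and *Axn*, had a named probe, 1 each, among 11971 named genes on the array. A further probe, annotated CG32005 on the platform, is listed by RefSeq under *pan*, and it is described with them as the fifth gene. *Wnt5*, *fz*, *fz2*, *arr* and *arm* had no named probe and were not analysed here.

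Wnt proteins are secreted signals. In the canonical branch they bind Frizzled receptors (*fz*, *fz2*) together with the co-receptor encoded by *arr*, and this stops a destruction complex built on the scaffold Axn from degrading the beta-catenin encoded by *arm*, which then works with the TCF factor encoded by *pan* on target genes. *nkd* (naked cuticle) is such a target and encodes an inhibitor that acts on the pathway as feedback. Ryk receptors form another branch: they hold an extracellular domain that binds Wnt proteins and a kinase domain that lacks catalytic activity. In the fly embryo, derailed is known as a receptor for Wnt5 that steers axons of the ventral nerve cord, and it also guides muscles to their attachment sites.

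The data were 2-colour arrays of long oligonucleotides on 2 Drosophila cell lines, DmD8 (5 arrays) and Kc (6 arrays), on each of which RNA of Notch-activated cells was hybridised beside a comparison RNA. Notch was activated with 2 mM EDTA, which chelates divalent metal ions, in PBS for 30 minutes, and control cells received PBS alone. In Kc the comparison RNA came from control cells. The DmD8 values carry the titles of both DmD8 experiments, activated against control cells and activated against activated cells kept overnight with 300 µM DFK-167, a gamma-secretase inhibitor, so which of these is the comparison RNA in DmD8 is not settled. Effects of EDTA other than those on Notch cannot be told apart from Notch activation in the Kc ratios, nor in the DmD8 ratios if control RNA was the comparison. Each line is a single culture line, and the labels name no altered allele in either. DmD8 medium held insulin, per the labels.

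Each array gave a log ratio for 13353 to 15638 of 17258 probes. Arrays are numbered as the labels number the replicates: arrays 1 to 3 of each line had the activated RNA in Cy5, and array 4 and above were dye swaps. Since the labels give 3 biological replicates per experiment, a swap is taken to repeat the RNA of one of them, and standard errors and P values over arrays are too small. Where it bears on a call, the number of ways to average each swap with a replicate that keep the call is given, of 36 in all. The dye term of these pairings belongs to the DmD8 replicate left without a swap. Kc has no dye term there, so for Kc calls it changes only the spread that the lines share. A ratio holds no level, so the identity of the lines could be checked only by whether spots gave a value: of 7 blood cell markers on the array 6 had a value on all 6 Kc arrays, with *NimC1* on none of them, and of 6 markers chosen for DmD8 5 had a value on all 5 DmD8 arrays, with *vg* on 3. Most of these spots gave values in the other line too, so the count does not tell the lines apart.

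A positive log ratio is read as higher in activated RNA. That direction is likely and not stated, and rests on how the labels order the dyes and on genes of the E(spl) group, known targets of Notch. *E(spl)m3-HLH* lay between 0.33 and 1.80 on the DmD8 arrays and between 3.92 and 4.55 on the Kc arrays, swaps included. *E(spl)m7-HLH* lay between 0.955 and 1.825 on the DmD8 arrays and between 0.671 and 1.66 on the Kc arrays, swaps included. The Kc arrays gave 4.55 to 6.51 for *E(spl)mbeta-HLH*, but the DmD8 arrays gave -0.26 to 0.27. With the swaps turned, *E(spl)m3-HLH* and *E(spl)m7-HLH* would be negative on every swap and positive on every other array. The sources used here do not give the log base, which was taken as 2, so values are printed as log ratios and not as folds. In RNA from whole cultures, a change in the number of cells of a type and a change in RNA per cell cannot be told apart.

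*drl* was the Wnt gene with the highest ratio of the 5 in DmD8. Its log ratios on DmD8 arrays 1 to 5 were 1.90, 2.18, 0.71, 1.96 and 2.05, a mean of 1.76 ± 0.60 (SD, n = 5). The ratio was positive on every DmD8 array and stood near 2 on 4 of them, with array 3 apart from the rest. In a limma model that held a mean and a dye effect for each line, the estimate was 1.80 ± 0.20 (SE; 95% interval 1.37 to 2.23; adjusted p = 0.000393). Among 13690 genes and unnamed probes tested in DmD8, the estimate for *drl* ranked 6 from the highest. The 3 arrays with activated RNA in Cy5 averaged 1.59 and the 2 dye swaps 2.01. The call held under all 36 pairings of swaps with replicates, with a highest adjusted p of 0.0221 in limma. It rests on the sign of the swaps as deposited: with the swaps turned the estimate was -0.21 (limma adjusted p = 0.476).

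DmD8 array 3 gave the lowest DmD8 value for *drl*, *dnt*, *nkd* and *Axn*. Among features called in DmD8, a choice made from these same arrays, it also had the median ratios closest to 0. The median over the 371 features called higher in DmD8 was 0.29 on array 3 and 0.44 to 0.62 on the other 4 arrays. Over the 501 called lower it was -0.29, against -0.52 to -0.69. Of the 357 higher features with a value on every DmD8 array, 160 were lowest on array 3. Without array 3 the estimate for *drl* was 2.02.

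In Kc, *drl* did not pass the test. Its log ratios on Kc arrays 1 to 6 were 0.16, 0.040, 0.24, 0.96, -0.050 and 0.071, a mean of 0.24 ± 0.37 (SD, n = 6). A single array, number 4, stood near 1, and the other 5 lay close to 0. The limma estimate was 0.24 ± 0.18 (SE; 95% interval -0.15 to 0.62; adjusted p = 0.488), and 0.079 without array 4. The difference between the lines, DmD8 minus Kc, was 1.56 ± 0.26 (SE; 95% interval 0.98 to 2.14; limma adjusted p = 0.00455), which ranked 11 from the highest of 12946 features tested in both lines. The groups overlapped by 1 array each: the lowest DmD8 value, 0.71, lay under the highest Kc value, 0.96. The call on the difference held under all 36 pairings with a dye term and under 28 of 36 without one. It was lost with the arrays that had activated RNA in Cy5 alone (1.45, limma adjusted p = 0.0821).

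**Figure D1:**
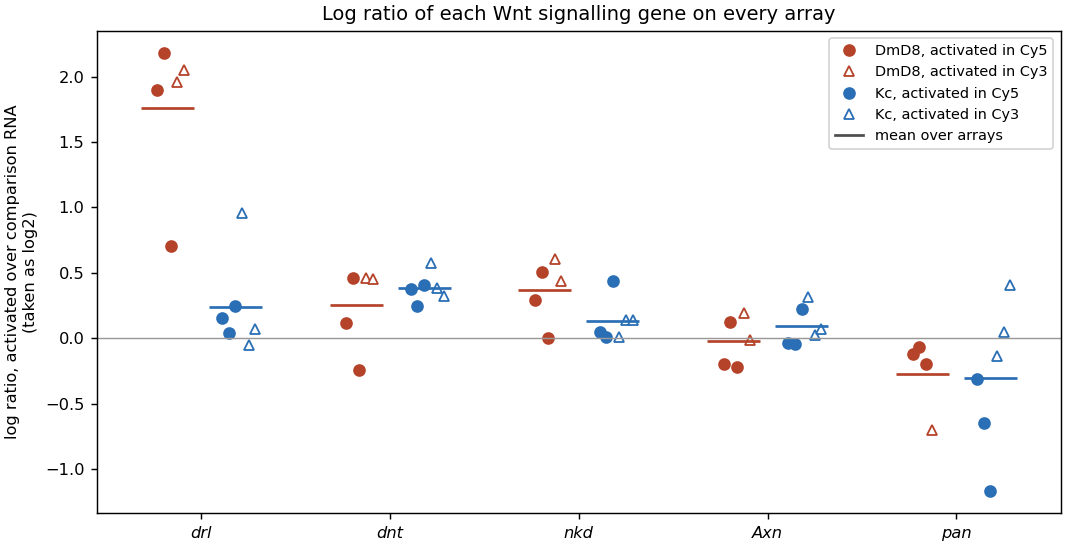
Log ratio of activated over comparison RNA (y axis, taken as log2) for the 5 Wnt genes with a probe (x axis), 1 point per array, with DmD8 in red and Kc in blue, filled circles for activated RNA in Cy5, open triangles for dye swaps, and bars at the mean over arrays. For *drl*, 4 DmD8 arrays lie near 2 with array 3 at 0.71, while 5 Kc arrays lie near 0 with array 4 at 0.96.

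The plot of values by array shows the size of the *drl* ratios in DmD8 beside those of the other 4 genes, whose highest value on any array was 0.60, for *nkd*. It also shows *pan*, where filled and open symbols separate in Kc.

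The second Ryk receptor gene, *dnt*, passed the test in Kc. Its Kc log ratios were 0.38, 0.25, 0.41, 0.58, 0.38 and 0.32, a mean of 0.39 ± 0.11 (SD, n = 6). All 6 Kc arrays were positive and close together, with the swaps as deposited. The limma estimate was 0.39 ± 0.086 (SE; 95% interval 0.19 to 0.58; adjusted p = 0.0169). It kept the call in 34 of the 36 pairings with a dye term and in 9 of 36 without one. That dye term acts on DmD8 alone, and the Kc estimate was 0.39 in all of these pairings. The call was lost without Kc array 1 (limma adjusted p = 0.0502) or array 4 (0.0615). With the swaps turned the estimate was -0.041.

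In DmD8 the log ratios of *dnt* were 0.12, 0.46, -0.24, 0.46 and 0.46, a mean of 0.25 ± 0.31 (SD, n = 5). The value was positive on 4 of 5 arrays, and array 3 was negative. The limma estimate of 0.29 ± 0.097 (SE; 95% interval 0.073 to 0.50) did not pass the threshold (adjusted p = 0.123), but did without array 3 (0.37, adjusted p = 0.0342). Without array 1, 2, 4 or 5 it did not pass (limma adjusted p = 0.23, 0.32, 0.30 and 0.30). In DmD8 *dnt* was called in 5 of 36 pairings with a dye term and in 0 without one. The lines' values overlapped, and the difference of -0.099 ± 0.13 (SE; 95% interval -0.38 to 0.19) did not pass the test (limma adjusted p = 0.666). The interval leaves room for a difference in either direction.

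The third fly Ryk gene, *Drl-2*, gave few values. Its DmD8 values were 0.96 and 0.24, both on dye swaps, which allowed no test. In Kc it had values on 4 arrays, -0.27 and -1.22 with activated RNA in Cy5 and 0.75 and 0.86 on the swaps, so the sign followed the dye. The limma estimate in Kc was 0.031 ± 0.16 (SE, n = 4; adjusted p = 0.953).

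*drl* and *dnt* lie close together on chromosome arm 2L, with 3 protein-coding genes between them in the RefSeq annotation. These 3 and the 3 genes on each outer side are 9 neighbours, a set chosen after values were seen, of which 8 had a probe. In DmD8, 5 of them could be tested and none passed, with estimates from -0.10 to 0.28 and a lowest limma adjusted p of 0.129, where 6.37% of all features passed. In Kc, 6 could be tested and none passed, with estimates from -0.29 to 0.19 and a lowest limma adjusted p of 0.0563, where 10.5% of all features passed. With so few genes, counts of 0 are near these shares and are no result about the neighbours. The highest DmD8 estimate among the neighbours belonged to *pigeon*, the gene next to *drl* on the side away from *dnt*.

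**Figure D2:**
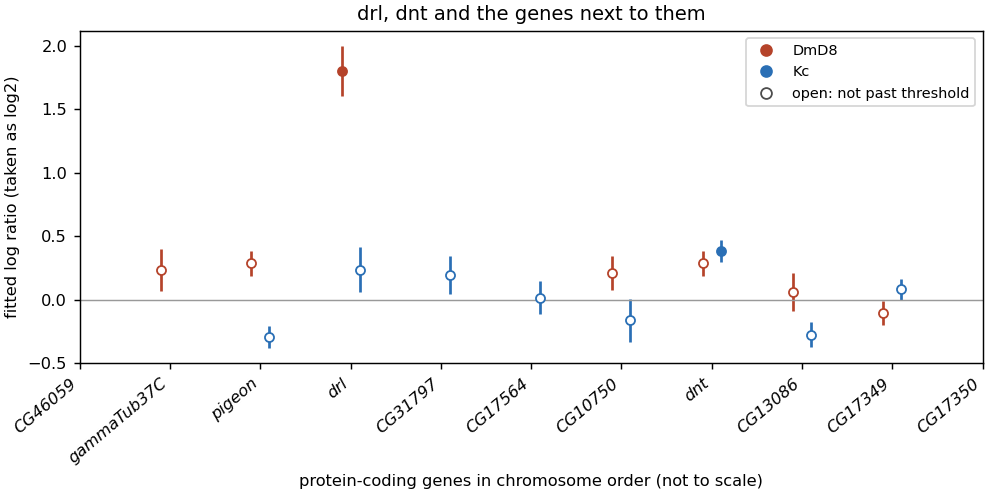
Fitted log ratio (y axis, taken as log2) of *drl*, *dnt* and their neighbouring protein-coding genes in chromosome order (x axis, not to scale), with DmD8 in red, Kc in blue and bars of 1 SE. Filled points passed the threshold. In DmD8 *drl* stands at 1.80, with tested neighbours between -0.10 and 0.28.

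The plot of neighbouring genes shows a ratio for *drl* above that of each of the 5 neighbours tested in DmD8. *CG31797* and *CG17564*, the nearest genes on the side of *dnt*, could not be tested there. Genes without a point had no probe or too few values in that line.

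Among genes acting inside the cell, the feedback inhibitor *nkd* passed the test in DmD8. Its DmD8 log ratios were 0.29, 0.51, 0.0047, 0.60 and 0.44, a mean of 0.37 ± 0.23 (SD, n = 5). All 5 arrays were above 0, array 3 by very little. The limma estimate was 0.39 ± 0.094 (SE; 95% interval 0.19 to 0.60; adjusted p = 0.0297). The call did not hold up in most other settings. It was lost on leaving out array 1, 2, 4 or 5, where the limma adjusted p was 0.0846, 0.102, 0.177 and 0.0904, and it was kept in 11 of the 36 pairings with a dye term and in 10 without one. Without a dye term the adjusted p was 0.0766, and with the swaps turned the estimate was -0.13.

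In Kc the log ratios of *nkd* were 0.047, 0.012, 0.44, 0.011, 0.14 and 0.14, a mean of 0.13 ± 0.16 (SD, n = 6). All 6 were above 0, and array 3 was the highest. The limma estimate of 0.13 ± 0.084 (SE; 95% interval -0.054 to 0.32) did not pass (adjusted p = 0.406). The values of the lines overlapped, and the difference of 0.26 ± 0.13 (SE; 95% interval -0.013 to 0.54) did not pass either (limma adjusted p = 0.229). A response of *nkd* in 1 line only was therefore not shown.

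*Axn*, the scaffold of the destruction complex, lay around 0 in both lines. Its DmD8 log ratios were -0.20, 0.13, -0.22, 0.20 and -0.011, and its Kc log ratios were -0.034, -0.044, 0.22, 0.32, 0.026 and 0.068. Both lines had arrays on each side of 0, and their ranges overlapped. The limma estimates were -0.0023 ± 0.086 (SE; 95% interval -0.19 to 0.19; adjusted p = 0.989) in DmD8 and 0.092 ± 0.077 (SE; 95% interval -0.077 to 0.26; adjusted p = 0.549) in Kc. Both intervals include 0.

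The probe placed in *pan*, the TCF factor, gave ratios that differed between dye orientations, in opposite directions in Kc and DmD8. Its DmD8 log ratios were -0.12, -0.066 and -0.20 on arrays 1 to 3 and -0.70 on array 4, with no value on array 5. Its Kc log ratios were -0.31, -0.65 and -1.17 with activated RNA in Cy5, and -0.14, 0.051 and 0.41 on the swaps. In Kc the orientations did not overlap, with means of -0.71 and 0.11. The limma estimates were -0.42 ± 0.16 (SE, n = 4) in DmD8, where 1 swap carried the dye term, and -0.30 ± 0.11 (SE, n = 6) in Kc. Neither passed the threshold (adjusted p = 0.175 and 0.124), and the difference between the lines did not pass (-0.11 ± 0.19, SE; adjusted p = 0.737). With the Kc arrays of activated RNA in Cy5 alone the estimate was -0.71 and passed (limma adjusted p = 0.0206), and with the swaps turned it was -0.41 and passed as well (0.0321).

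Of the 5 genes, 2 were called in DmD8 (*drl* and *nkd*), against 6.37% of all features tested there, and 1 in Kc (*dnt*), against 10.5%. In the difference between lines 1 was called (*drl*), against 10.2%. A count over 5 genes is too small to read as a share. In DmD8 their order by estimate was *drl*, *nkd*, *dnt*, *Axn*, *pan*, at ranks 6, 429, 830, 5710 and 13279 of 13690. With the swaps turned the order ran from *pan* (0.29) through *Axn* (-0.095), *nkd* (-0.13) and *dnt* (-0.17) to *drl* (-0.21). It was the reverse except that *nkd* stayed above *dnt*. In Kc the order was *dnt*, *drl*, *nkd*, *Axn*, *pan*, at ranks 775, 1775, 3468, 4429 and 13468 of 14432. With the swaps turned it was *nkd* (0.034), *dnt* (-0.041), *Axn* (-0.044), *drl* (-0.089), *pan* (-0.41). With the swaps as deposited, the SE intervals of *nkd* and *dnt* in DmD8 overlap each other, and no other neighbours in that order do. In Kc the SE intervals overlap from each gene to the next for *dnt*, *drl*, *nkd* and *Axn*, and that of *pan* lies apart.

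**Figure D3:**
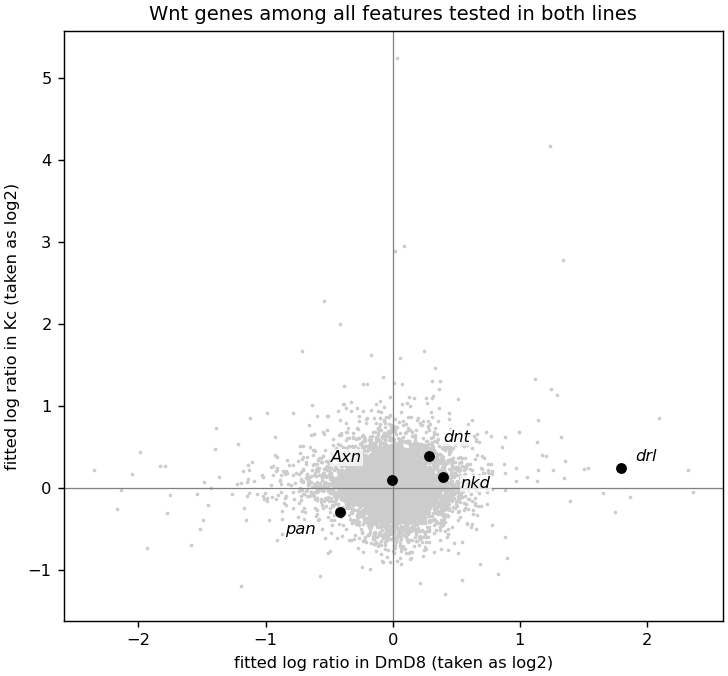
Fitted log ratio in DmD8 (x axis) against that in Kc (y axis), both taken as log2, for every gene or unnamed probe tested in both lines (grey) and the 5 Wnt genes (black, labelled). *drl* lies far to the right at 1.80 in DmD8 and 0.24 in Kc, and the other 4 lie inside or at the edge of the dense centre.

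The plot of DmD8 against Kc places the 5 genes in the whole table. *dnt* and *nkd* lie on the positive side in both lines and *pan* on the negative side in both.

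A list of 58 genes of the pathway was used for the surroundings of these 10 genes, and 33 of them had a probe, that of *pan* through RefSeq. In DmD8, 27 could be tested: 3 were called higher (*drl*, *sgl*, *nkd*) and 2 lower (*sfl*, *slmb*), against 2.71% and 3.66% of all features tested there. In Kc, 30 could be tested, with 4 higher (*sgl*, *gish*, *otk*, *dnt*) and 2 lower (*por*, *boca*), against 6.14% and 4.34% of all features. The median estimate of the list was 0.0024 in DmD8, where it was -0.041 over all features, and 0.087 in Kc, where it was 0.011 over all features.

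Of 7 tested genes of ligand secretion and transport, 2 were called in DmD8, against 6.37% of all features, and 3 in Kc, against 10.5%. *sgl* (sugarless) encodes UDP-glucose dehydrogenase, which makes a precursor of the heparan sulphate chains that hold Wnt proteins at the cell surface. Its log ratios were 1.86, 1.43, 0.76, 1.45 and 1.14 in DmD8, and 0.49, 0.92, 0.86, 0.34, 0.55 and 0.55 in Kc. It was positive on all 11 arrays, and the lines overlapped only through DmD8 array 3. The limma estimates were 1.32 ± 0.14 in DmD8 (SE; adjusted p = 0.000322) and 0.62 ± 0.12 in Kc (SE; adjusted p = 0.00961), and both kept the call in all 36 pairings with a dye term. Without one, the call was kept in all 36 in DmD8 and in 27 in Kc.

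The difference between the lines for *sgl* was 0.71 ± 0.18 (SE; limma adjusted p = 0.0348), which was lost on leaving out any single array other than DmD8 array 3 or Kc array 2 or 3. *sfl* (sulfateless) encodes an enzyme that sulphates the same chains and lay lower in DmD8. Its DmD8 log ratios were -0.096, -0.22, -0.46, -0.50 and -0.38, an estimate of -0.35 ± 0.076 (SE; limma adjusted p = 0.0188), kept in 3 of 36 pairings with a dye term and in 4 without one. All 6 Kc values were positive, from 0.086 to 0.26, so the lines did not overlap, and the difference was -0.52 ± 0.10 (SE; limma adjusted p = 0.00964).

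*por* (porcupine) encodes the enzyme that attaches a fatty acid to Wnt proteins before secretion, and it lay lower in Kc. Its Kc log ratios were -0.68, -0.43, -0.55, -0.48, -0.24 and -0.34, an estimate of -0.45 ± 0.072 (SE; limma adjusted p = 0.00289), kept in all 36 pairings with a dye term and in 35 without one. The DmD8 values lay on both sides of 0, from -0.23 to 0.30, and the difference was 0.46 ± 0.11 (SE; limma adjusted p = 0.0223). *boca*, which encodes an endoplasmic reticulum chaperone for LDL-receptor-type proteins such as the one made by *arr*, had a Kc estimate of -0.32 ± 0.090 (SE; limma adjusted p = 0.0480), kept in 13 of 36 pairings with a dye term and in 0 without one. *wls*, *dlp* and *Swim*, the other 3 genes of this group, did not pass in either line.

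Among receptors other than the Ryk genes, *otk* (off-track, related to vertebrate PTK7) had a Kc estimate of 0.42 ± 0.12 (SE; limma adjusted p = 0.0471). Its Kc values ran from -0.37 to 0.78, with 5 of 6 positive, and the call was kept in 12 of 36 pairings with a dye term and in 2 without one. *Ror*, another kinase-type receptor that can bind Wnt proteins, had a Kc estimate of -0.17 ± 0.10 (SE; limma adjusted p = 0.408). In DmD8 it had 2 values, which allowed no test.

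*gish* (gilgamesh), a casein kinase of the gamma type, was higher in Kc. Its Kc log ratios were 0.65, 0.28, 0.21, 0.84, 0.64 and 0.37, an estimate of 0.50 ± 0.081 (SE; limma adjusted p = 0.00344), kept in all 36 pairings with a dye term and in 35 without one. The DmD8 values ran from -0.29 to 0.31, negative with activated RNA in Cy5 and positive on the swaps, and the difference was -0.49 ± 0.12 (SE; limma adjusted p = 0.0270). *slmb*, the substrate-binding subunit of the ubiquitin ligase that marks the *arm* product for degradation, had DmD8 log ratios of -0.48, -0.67 and -0.73 with activated RNA in Cy5 and 0.11 and -0.13 on the swaps. Its estimate was -0.32 ± 0.073 (SE; limma adjusted p = 0.0234), kept in 1 of 36 pairings with a dye term and in 23 of 36 without one. In Kc *slmb* was negative on the 3 arrays whose activated RNA was in Cy5, from -0.069 to -0.19, and positive on the 3 swaps, from 0.45 to 0.54, and the difference was -0.49 ± 0.097 (SE; limma adjusted p = 0.0105).

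**Figure D4:**
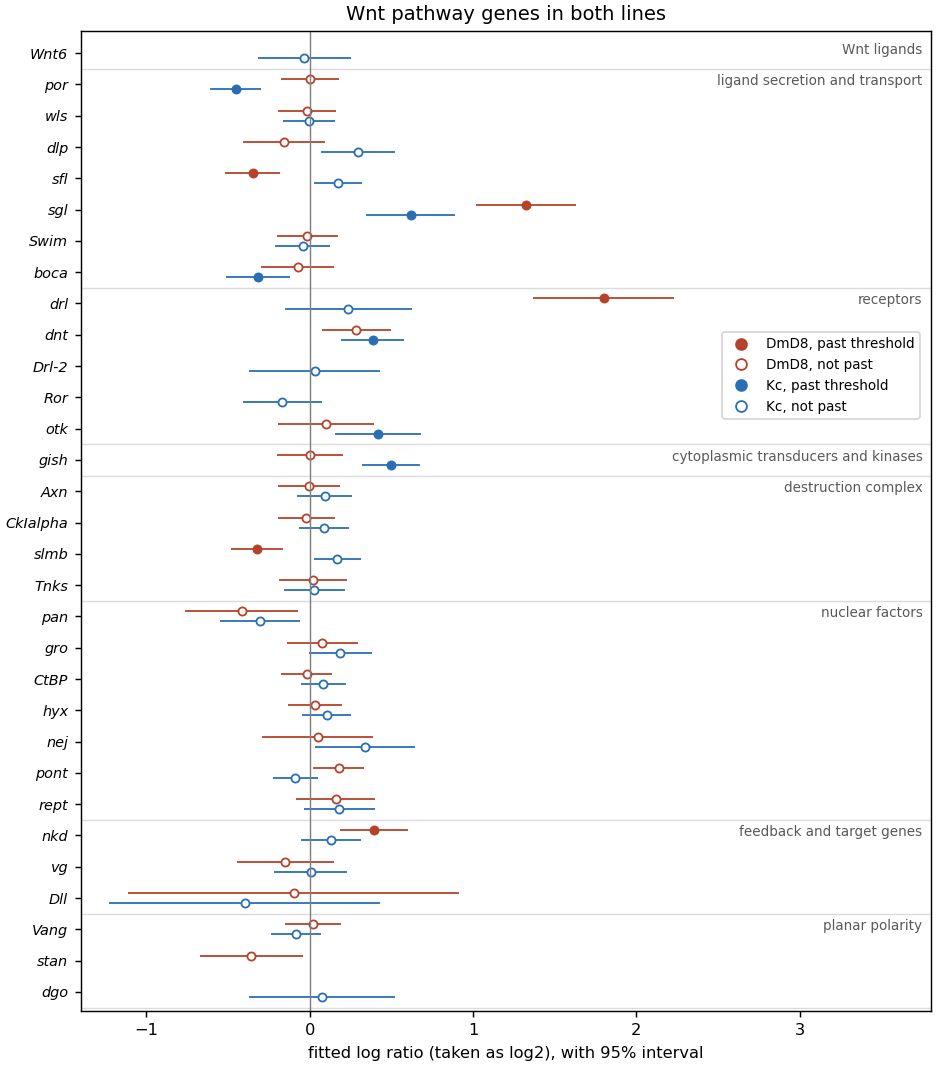
Fitted log ratio (x axis, taken as log2) with its 95% interval for each gene of the pathway list that could be tested, grouped by role (y axis), with DmD8 in red and Kc in blue. Filled points passed the threshold: 5 of 27 in DmD8 and 6 of 30 in Kc, with *drl* at 1.80 and *sgl* at 1.32 the highest in DmD8.

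The plot of pathway genes shows where the calls fell by role. None of the 7 nuclear factors passed in either line, *pan*, *gro*, *CtBP*, *hyx*, *nej*, *pont* and *rept* included, with estimates from -0.42 to 0.18 in DmD8 and from -0.30 to 0.34 in Kc. Of all features, 6.37% passed in DmD8 and 10.5% in Kc. At an unadjusted p under 0.05, 2 of these 7 passed in limma in DmD8 and 2 in Kc. Over all features it was 2597 of 13690 in DmD8 and 3382 of 14432 in Kc. Counts over so few genes per role are too small to read as shares. Of 5 feedback and target genes, 3 could be tested in each line, and of these *nkd* in DmD8 was the only call. *Wnt6*, the only ligand with a named probe, had an estimate of -0.032 ± 0.12 in Kc (SE, n = 5; limma adjusted p = 0.934) and could not be tested in DmD8, where its 3 values were all from arrays with activated RNA in Cy5. The difference between lines was called for 6 of 26 testable genes, higher in DmD8 for *drl*, *sgl* and *por* and lower for *sfl*, *gish* and *slmb*, against 4.06% and 6.12% of all features.

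Apart from *drl*, *sgl*, *por* and *gish*, the calls of the list in 1 line were easily lost. In limma the DmD8 call was lost for *sfl* on leaving out DmD8 array 3, 4 or 5, and for *slmb* on leaving out array 2, 3, 4 or 5. The Kc call was lost for *boca* without any 1 of Kc arrays 1 to 5, and for *otk* without any 1 of arrays 1, 3, 4, 5 and 6. Of the differences between lines, the call was kept in 25 of 36 pairings with a dye term for *sfl*, 21 for *sgl*, 19 for *slmb*, 14 for *gish* and 9 for *por*. Without a dye term these counts were 14, 8, 22, 19 and 0. The difference for *por* was lost without DmD8 array 3 or 4, and that for *gish* without DmD8 array 1, 4 or 5 or Kc array 1, 4 or 5. With the swaps turned, *sgl* stood at 0.028 in DmD8 and 0.14 in Kc, *por* at -0.10 in Kc and *gish* at -0.12 in Kc, none of them past the threshold.

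The named genes whose log ratios across the 11 arrays were most like those of *drl*, out of 6373 genes with a value on every array, were *mod(mdg4)* (Pearson r = 0.942), *Dph1* (0.922) and *CG6345* (0.921). For *nkd* they were *Ts* (0.927), which encodes thymidylate synthase, *CG41128* (0.90) and *kirre* (0.884), which encodes an adhesion receptor of muscle founder cells. Within Kc the correlation with *drl* was 0.597 for *mod(mdg4)*, 0.73 for *Dph1* and 0.367 for *CG6345*, and within DmD8 it was 0.844, 0.601 and 0.86, so the value over 11 arrays also holds the difference between the lines. With *nkd* it was, in the order *Ts*, *CG41128*, *kirre*, 0.84, 0.661 and 0.675 within Kc and 0.973, 0.982 and 0.915 within DmD8. These are descriptions over arrays that share RNA and dye, and the correlation does not depend on level: the DmD8 estimate of *mod(mdg4)* was 0.063 and that of *Dph1* 0.90, against 1.80 for *drl*.

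**Figure D5:**
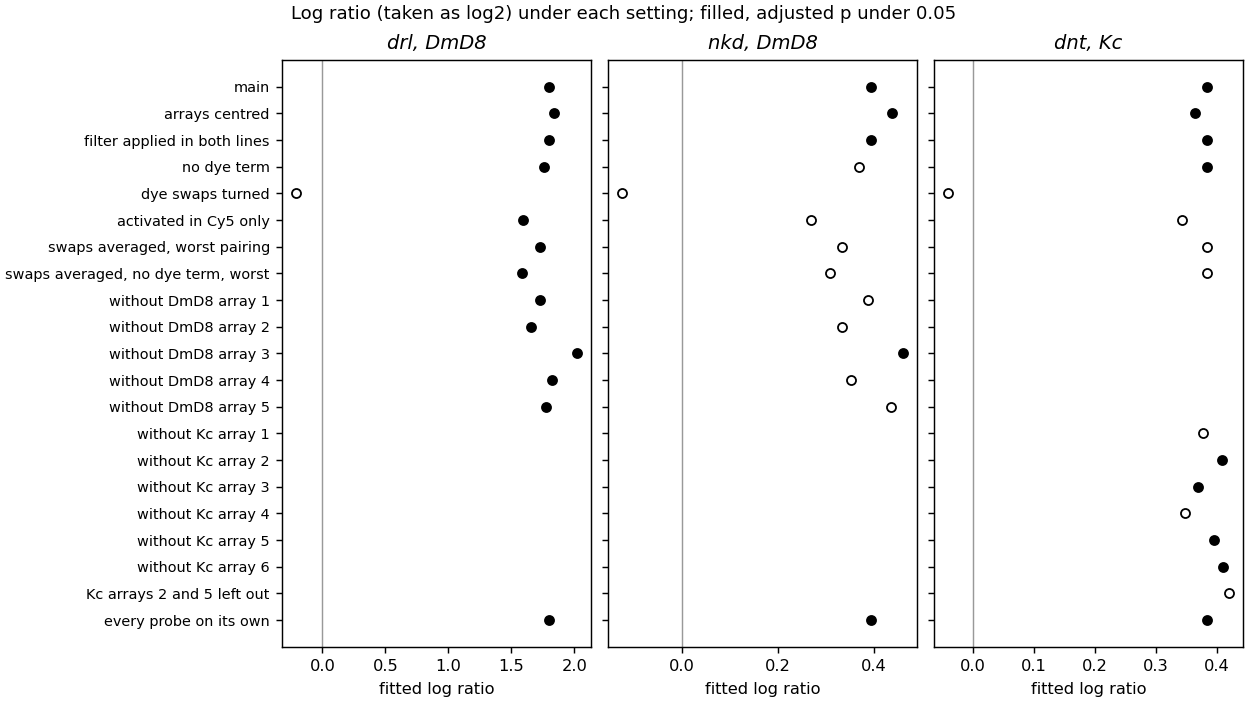
Fitted log ratio (x axis, taken as log2) of *drl* in DmD8, *nkd* in DmD8 and *dnt* in Kc under each setting (y axis), with filled points for an adjusted p under 0.05. *drl* stays between 1.58 and 2.02 and filled in every setting except with the dye swaps turned, at -0.21, while *nkd* and *dnt* lose the call in several.

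The plot of settings sets the 3 calls among the 5 genes side by side. Turning the swaps brought all 3 estimates below 0, and no other setting did so.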

How the data were processed

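Each array compared activated and comparison RNA in Cy3 and Cy5. Per the labels, RNA was extracted with Trizol, copied from oligo-dT primers and hybridised to FlyChip FL002 arrays, and spots were quantified with Dapple. The deposited table gives a log ratio for each probe on each array, taken as log2 from the range of values (-3.35 to 6.51). For background correction, normalization and log base the sources used here give nothing. Array medians ran from -0.13 to 0.16. Precision is limited by the number of biological replicates, given as 3 per experiment.

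The DmD8 columns titled for the inhibitor held the values of those titled control (24 of 71019 pairs not identical, by at most 4.87e-08) and were counted once. Replicates with the activated RNA in Cy3 were taken as already turned by the authors. The mean correlation between arrays, over 10058 features, was 0.535 within and -0.034 across dye orientations in DmD8, and 0.614 and 0.0098 in Kc.

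Of the probes, 12658 had 1 gene symbol in the platform annotation, 96 several and 4504 none. RefSeq gene IDs matched 12012 and updated 20 symbols. Probes of a gene were averaged. limma 3.58.1 in R 4.3.3 was fitted once to 11 arrays (for each line a mean and a dye effect), after tests on simulated data. A feature was tested in a line with at least 3 values and both orientations there, with Benjamini-Hochberg adjustment of P values over all features tested (threshold 0.05). No list-wide test was made. Text names all members, each listed pathway gene past the threshold, and the 3 genes most correlated with *drl* and with *nkd*. Members, lists, the pathway list and the handling of swaps were chosen with earlier results of these data known. Figures used Python 3.11.15, pandas 2.3.3 and matplotlib 3.10.9. Alternatives were array centring, filters, dye handling, swaps averaged with replicates, arrays left out, single probes and a replicate block.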

Additional observations from a re-analysis of the deposited data

Results flagged for a closer look

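Of 24 groups of arrays checked for a single value apart from the rest, 3 had one, where chance gives about 1 in 20. *drl* on DmD8 array 3 was 0.71, and the other 4 DmD8 arrays lay between 1.90 and 2.18. *drl* on Kc array 4 was 0.96, and the other 5 lay between -0.050 and 0.24. *nkd* on Kc array 3 was 0.44, and the other 5 lay between 0.011 and 0.14.

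The ratios of 6 genes differed between the lines by the limma contrast of DmD8 minus Kc: 1.56 for *drl*, 0.71 for *sgl* and 0.46 for *por*, and -0.52 for *sfl*, -0.49 for *gish* and -0.49 for *slmb*. For *sfl* every DmD8 array was negative and every Kc array positive.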

How the results depend on the processing

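Among the pathway genes, 5 were called in DmD8, 6 in Kc and 6 in the difference. The shares of all features called were 6.37%, 10.5% and 10.2%. For the other settings such shares were not computed. A change in the counts that follow therefore cannot be told apart from a change over the whole array. DmD8 calls fell to 3 with arrays centred, 3 without a dye term, 2 with the swaps turned, 3 with activated RNA in Cy5 alone, and 2 in the least favourable pairing with or without a dye term, and ran from 2 to 4 with an array left out. In Kc, 3 calls held in all 36 pairings with a dye term. Without that term 0 held in all 36 (6 at an unadjusted p under 0.05 in limma), though *por* and *gish* were each called in 35 and *sgl* in 27. Kc calls were 3 without Kc arrays 2 and 5, and ran from 3 to 5 with an array left out. Difference calls were 2 without a dye term, 0 with the swaps turned (1 unadjusted in limma) and 0 with activated RNA in Cy5 alone (7 unadjusted). They ran from 3 to 7 with an array left out. With a dye term 1 held in all 36 pairings, that of *drl*. Without one 0 held in all 36 (6 unadjusted), and *drl* was called in 28. The pairings without a dye term were chosen after seeing the data. Replicate numbers did not pair the lines: deviations of same-numbered arrays correlated between -0.325 and 0.197, only replicate 3 correlated best with its own number, and with the replicate block 1 difference call remained, that of *drl*.

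With the swaps turned, estimates changed sign in DmD8 for *drl* (-0.21), *dnt* (-0.17), *pan* (0.29), *nkd* (-0.13) and *sfl* (0.090), in Kc for *drl* (-0.089), *dnt* (-0.041), *Axn* (-0.044), *otk* (-0.25) and *gish* (-0.12), and in the difference for *drl* (-0.12), *pan* (0.70), *nkd* (-0.16), *por* (-0.032), *sfl* (0.089), *sgl* (-0.11) and *slmb* (0.011). *Axn* in DmD8 was 0.040 with arrays centred, 0.023 and 0.0032 in the least favourable pairings with and without a dye term, and -0.058 to 0.049 with an array left out. The difference for *pan* was 0.029 without a dye term, 0.58 when the swaps were left out and 0.0064 under the replicate block. The causes were not tested.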
